A study of Rattus norvegicus and Mus musculus with 18 samples.

Results

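Notch signalling was described across mouse skin wounds through 10 genes, chosen by name as receptors (Notch1, Notch2, Notch3 and Notch4), ligands (Jag1, Jag2, Dll1 and Dll4) and targets (Hes1 and Hey1). All 10 were found once by Ensembl identifier among the 49548 genes of the mouse table. The libraries came from whole tissue of adult mice, taken 1 day after the scab came off a skin wound: 3 of wound epidermis and 3 of wound dermis. The sources used here give neither strain, sex and age in weeks nor the number of animals. P-values therefore measure the spread among the libraries themselves, which may be technical. The series also held rat libraries, which are not used here.

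Notch receptors are single-pass membrane proteins that are activated by ligands on a neighbouring cell. Ligand binding exposes the receptor to cleavage by an ADAM protease and then by gamma-secretase, and the freed intracellular part enters the nucleus, where it joins the DNA-binding protein Rbpj and a Mastermind coactivator to switch on genes such as Hes1 and Hey1. In the epidermis the pathway is known for promoting the step of keratinocytes out of the basal layer. In blood vessels Dll4, Notch4 and Hey1 are known for their part in endothelial cells, and Notch3 for its part in mural cells.

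Rbpj binds the core letters TGGGAA, and the rat promoter windows that RefSeq gives for the members (build GRCr8, from 250 bases before to 50 bases after the start of each gene) were searched for them on both strands. Windows were found for 8 members, and none was found for Dll4 or Hey1. Hes1, Dll1 and Notch4 each held 2 matches, Notch3 held 1, and the windows of Notch1, Notch2, Jag1 and Jag2 held 0. Of all 33469 rat windows of this length 25.7% held at least 1 match and 3.85% at least 2. The windows of Hes1 and Notch4 are shown because both carry 2 matches, while their mRNAs behaved differently between the mouse wound compartments. Capitals mark the matches, read as TGGGAA or, from the other strand, as TTCCCA. Both are rat sequences and no rat expression value is set beside them. Rat Hes1 lies at chr11:84212996-84213295 and rat Notch4 at chr20:4189023-4189322, both on the minus strand, printed 5′ to 3′ along the gene.
rat Hes1 promoter: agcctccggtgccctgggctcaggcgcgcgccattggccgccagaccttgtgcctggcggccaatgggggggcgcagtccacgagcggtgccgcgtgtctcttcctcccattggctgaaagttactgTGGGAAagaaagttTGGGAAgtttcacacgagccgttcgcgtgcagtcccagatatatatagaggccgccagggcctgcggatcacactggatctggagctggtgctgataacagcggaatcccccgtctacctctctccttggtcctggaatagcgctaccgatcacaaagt
rat Notch4 promoter: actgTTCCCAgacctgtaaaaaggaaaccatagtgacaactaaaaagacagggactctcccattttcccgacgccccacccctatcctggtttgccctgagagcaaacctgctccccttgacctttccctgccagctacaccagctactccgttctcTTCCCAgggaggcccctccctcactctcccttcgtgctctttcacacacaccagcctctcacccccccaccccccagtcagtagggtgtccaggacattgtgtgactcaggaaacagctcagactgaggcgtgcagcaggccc
The Hes1 matches began at positions -123 and -109, counted from the start of the gene, close to each other and in the same orientation. Those of Notch4 began at -246 and -93, far apart and both read from the opposite strand. A match is a string of letters and not a measured binding site.

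The values are TPM, a length-corrected measure of each gene's transcripts out of 1000000 in a library, and levels of different genes are set side by side on this scale. The sources used here give no annotation, settings or use of strand, so ratios, shares and orders between genes are approximate. How many reads stand behind a library is not known. Wound epidermis libraries listed 13117 to 14012 genes at 1 TPM or more, and wound dermis libraries 15958 to 16257. The labels were checked against defining markers. All 10 differentiated keratinocyte markers were called higher in epidermis, and all 9 fibroblast, 11 endothelial and 9 mural cell markers were called lower. Other lists were less uniform. Of 8 basal keratinocyte markers 5 were called higher and 0 lower, and of 6 Langerhans cell markers 1 was called higher and 4 lower. The higher one was Epcam, and the lower ones were Cd74, H2-Aa, H2-Ab1 and Itgax. Cd207 averaged 9.65 TPM in epidermis and 4.04 TPM in dermis and was not called (limma adjusted p = 0.073). Over all tested genes 17.0% were called higher and 39.3% lower. Summed differentiated keratinocyte markers stood at 58680, 85419 and 36736 TPM in wound epidermis replicates 1, 2 and 3, and at 806, 13739 and 298 TPM in wound dermis replicates 1, 2 and 3. Basal keratinocyte markers summed to 1945, 3449 and 324 TPM in wound dermis replicates 1, 2 and 3, so replicate 1 also stood above replicate 3. Wound dermis replicate 2 thus held more epidermal transcripts than the other dermis libraries, and results for the members are given with and without it where that changed a call or moved a called value by over 1.5 times.

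Notch4, Dll4 and Hey1 were close to 0 in epidermis and at a few TPM in dermis. Notch2, Jag1 and Hes1 were abundant in both compartments. Notch1, Notch3, Jag2 and Dll1 stayed below 10 TPM in every library of both.

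**Figure D1:**
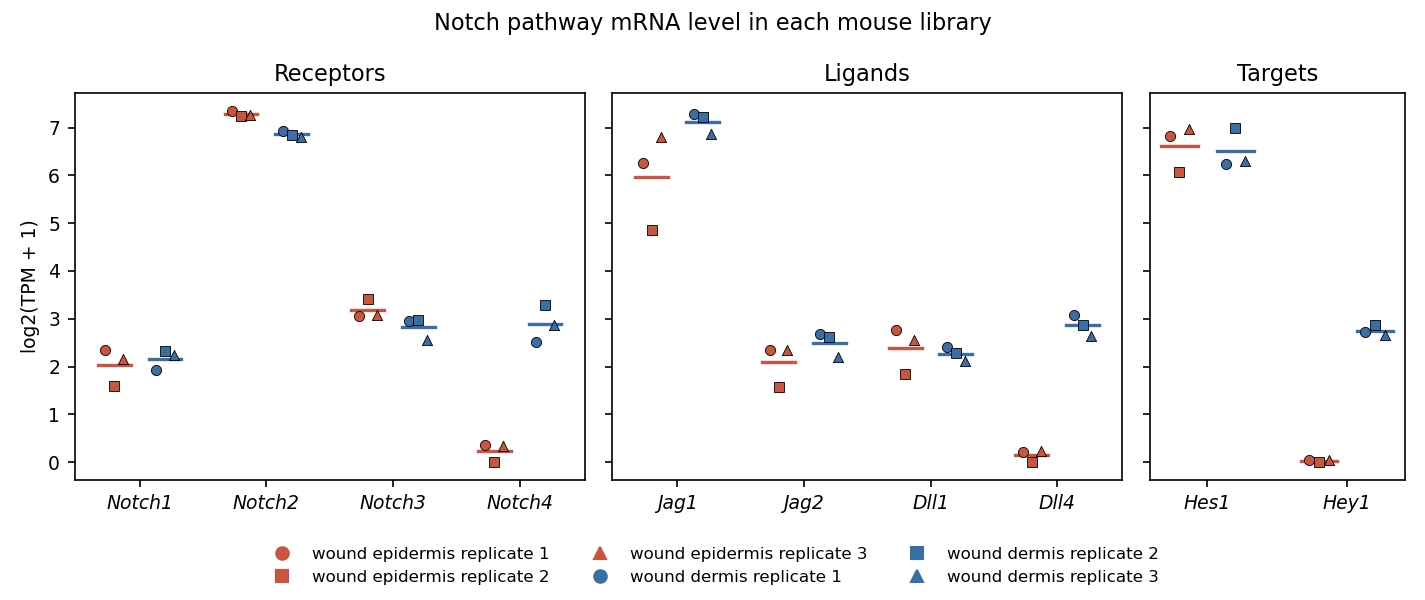
Level of each of the 10 genes in each mouse library as log2(TPM + 1), with wound epidermis in red to the left and wound dermis in blue to the right, 1 marker shape per replicate and a bar at the mean of 3 libraries. Notch4, Dll4 and Hey1 lie near 0 in all 3 epidermis libraries, while Notch2, Jag1 and Hes1 lie high in both tissues.

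A gene was called when its limma adjusted p was below 0.05 over the 15982 tested genes, with values on the log2(TPM + 1) scale. All 10 members had at least 1 TPM in at least 3 libraries and were tested; Notch4, Dll4 and Hey1 met this through the dermis libraries alone. Of the 10, 3 were lower in epidermis and 0 were higher. In this comparison 56.3% of all tested genes were called, 39.3% lower and 17.0% higher, so the members were not called more often than genes in general. At an unadjusted limma p below 0.05 they numbered 4 lower and 1 higher, and no share of all tested genes is given at that p. Under median-of-ratios scaling 2 members were called higher, and with quantile normalization 4. Of all 15982 tested genes 4342 and 4694 were called higher under these scalings, against 2721 in the fit as reported. In that fit the median log2 fold change of the members was -0.27, against -0.42 over all tested genes. Epidermis and dermis libraries did not overlap for 6 of the 10 members, 4 lower and 2 higher in epidermis, where 66.0% of tested genes did not overlap, 45.3% lower and 20.8% higher.

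Among the 4 receptors Notch2 was the most abundant. Its level was 161.88, 149.63 and 152.54 TPM in wound epidermis replicates 1, 2 and 3, against 121.41, 113.61 and 110.77 TPM in wound dermis replicates 1, 2 and 3. Every epidermis library lay above every dermis library, yet the log2 fold change of 0.42 (95% interval 0.02 to 0.83) did not pass after adjustment (limma adjusted p = 0.072). Relative to the median of all tested genes it stood 0.84 higher. Under median-of-ratios scaling the Notch2 log2 fold change was 0.89 (limma adjusted p = 0.0038), and quantile normalization gave 0.47 (limma adjusted p = 0.047). Notch2 averaged 48.3 times the TPM of Notch1 in epidermis and 32.9 times in dermis, ratios that depend on an annotation and settings that are not given. Gm42820, on the same strand, shares 541 exon bases with Notch2 and averaged 2.59 TPM in epidermis and 1.28 TPM in dermis.

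Notch1, the receptor best known in the epidermis, was low in both compartments. It stood at 4.12, 2.01 and 3.48 TPM in wound epidermis, against 2.82, 3.98 and 3.72 TPM in wound dermis. The groups overlapped fully, with the lowest value of all in epidermis replicate 2 and the highest in epidermis replicate 1. The log2 fold change was -0.13 (95% interval -0.74 to 0.48, limma adjusted p = 0.70), and its sign depended on scaling: it was 0.23 under median-of-ratios scaling, while quantile normalization gave 0.62, where the limma adjusted p was 0.046. A pair of noncoding genes lie over Notch1 on the opposite strand. Gm13568, sharing 414 exon bases with it, averaged 24.2 TPM in epidermis and 28.6 TPM in dermis, and 0610009E02Rik, sharing 1068, averaged 5.10 and 19.8 TPM in epidermis and dermis. The sources used here do not state strand-specific counting, so reads from these genes and from Notch1 cannot be told apart where the exons overlap.

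Notch3 was measured at 7.33, 9.67 and 7.48 TPM in wound epidermis, against 6.77, 6.90 and 4.87 TPM in wound dermis. All epidermis libraries were above all dermis libraries, by a narrow margin. Its log2 fold change of 0.35 (95% interval -0.17 to 0.88) did not pass (limma adjusted p = 0.21), though it did under median-of-ratios scaling (0.77, limma adjusted p = 0.037) and under quantile normalization (0.98, limma adjusted p = 0.014). All 9 mural cell markers were called lower in epidermis. The most abundant of them, the pericyte gene Rgs5, averaged 13.4 ± 9.04 TPM in epidermis, against 5351 ± 1849 TPM in dermis (SD, n = 3 each). The part of mural cells in the Notch3 levels was not tested.

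Notch4 was the 1 receptor called between the compartments without further scaling. It was listed at 0.29, 0 and 0.26 TPM in wound epidermis, against 4.72, 8.75 and 6.34 TPM in wound dermis. No epidermis library reached 1 TPM and no dermis library fell below 4 TPM. The log2 fold change was -2.66 ± 0.25 (SE, limma adjusted p = 0.00016). Because the epidermis values lie below the pseudocount of 1, this scale understates the difference, and with a pseudocount of 0.1 it was -4.75.

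As a share of the summed TPM of the 4 receptors, Notch2 made up 93.0% ± 0.255 in epidermis and 87.6% ± 2.14 in dermis (SD, n = 3 each). Notch3 made up 4.93% ± 0.94 and 4.68% ± 0.705 in epidermis and dermis, and Notch1 made up 1.91% ± 0.592 in epidermis and 2.67% ± 0.517 in dermis. Notch4 took 0.167%, 0% and 0.159% in the epidermis libraries, against 3.48%, 6.57% and 5.04% in the dermis libraries. The 4 together summed to 174, 161 and 164 TPM in epidermis, against 136, 133 and 126 TPM in dermis, with no overlap between the tissues.

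**Figure D2:**
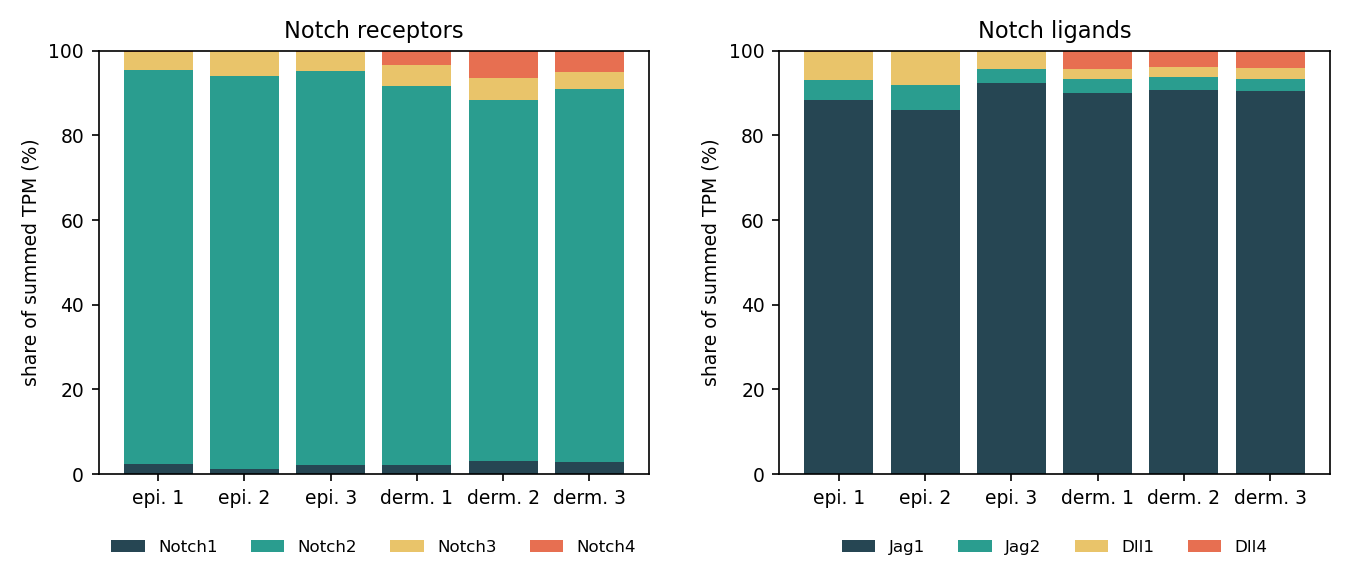
Share of each gene in the summed TPM of the 4 Notch receptors (left) and the 4 Notch ligands (right), in percent, for each wound epidermis library (epi. 1 to 3) and each wound dermis library (derm. 1 to 3). Notch2 and Jag1 fill most of every bar, and the top segments, Notch4 and Dll4, are visible in the dermis libraries.

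Among the ligands Jag1 led in both tissues. It stood at 75.87, 27.95 and 110.69 TPM in wound epidermis, against 155.63, 149.28 and 115.16 TPM in wound dermis. Every epidermis value was below every dermis value, with the nearest pair, epidermis replicate 3 and dermis replicate 3, almost touching. The log2 fold change was -1.15 (95% interval -2.27 to -0.03) and did not pass (limma adjusted p = 0.074). Epidermis replicates 2 and 3 set its size, since it was -0.59 without replicate 2 (limma adjusted p = 0.095) and -1.57 without replicate 3 (limma adjusted p = 0.024).

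Jag2, the related ligand of the Jagged type, was low. It measured 4.08, 1.98 and 4.05 TPM in wound epidermis, against 5.43, 5.15 and 3.61 TPM in wound dermis. The groups overlapped and the log2 fold change of -0.42 (95% interval -1.08 to 0.25) did not pass (limma adjusted p = 0.24). It equalled the median of all tested genes, and after quantile normalization its sign turned, to 0.30 (limma adjusted p = 0.32).

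Dll1, a ligand of the Delta type, was measured at 5.80, 2.61 and 4.90 TPM in wound epidermis, against 4.32, 3.86 and 3.36 TPM in wound dermis. The dermis libraries all fell inside the range of the epidermis libraries. The log2 fold change was 0.12 (95% interval -0.53 to 0.78, limma adjusted p = 0.73); it was -0.07 without epidermis replicate 1, and after quantile normalization it was 0.84 and passed (limma adjusted p = 0.019).

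Dll4, the Delta ligand of growing vessels, was listed at 0.15, 0 and 0.18 TPM in wound epidermis, against 7.44, 6.29 and 5.25 TPM in wound dermis. The tissues were widely apart. The log2 fold change was -2.72 ± 0.20 (SE, limma adjusted p = 4.7e-05), and -5.06 with a pseudocount of 0.1.

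Of the summed TPM of the 4 ligands, Jag1 accounted for 88.9% ± 3.28 in epidermis and 90.4% ± 0.326 in dermis (SD, n = 3 each). Dll1 took 6.75%, 8.02% and 4.09% in the epidermis libraries, against 2.50%, 2.35% and 2.64% in the dermis libraries. The share of Dll1 was thus above the dermis values in every epidermis library, although its level overlapped. The summed ligand level was 85.9, 32.5 and 120 TPM in epidermis, against 173, 165 and 127 TPM in dermis.

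The 2 target genes behaved differently from each other. Hes1, a basic helix-loop-helix repressor, was abundant in both tissues, at 112.08, 66.05 and 124.17 TPM in wound epidermis, against 74.81, 126.77 and 77.54 TPM in wound dermis. Neither tissue was consistently higher. The log2 fold change of 0.11 had a 95% interval of -0.65 to 0.87 (limma adjusted p = 0.80), which leaves room for a change of either sign. It lay between -0.07 and 0.38 with 1 library left out in turn, at 0.35 without dermis replicate 2.

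Hey1, a repressor of the related Hey family, was listed at 0.03, 0 and 0.03 TPM in wound epidermis, against 5.61, 6.33 and 5.34 TPM in wound dermis. All dermis libraries stood above 5 TPM and all epidermis libraries near 0. Its log2 fold change was -2.73 ± 0.17 (SE, limma adjusted p = 2.5e-05), and -5.62 with a pseudocount of 0.1.

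**Figure D3:**
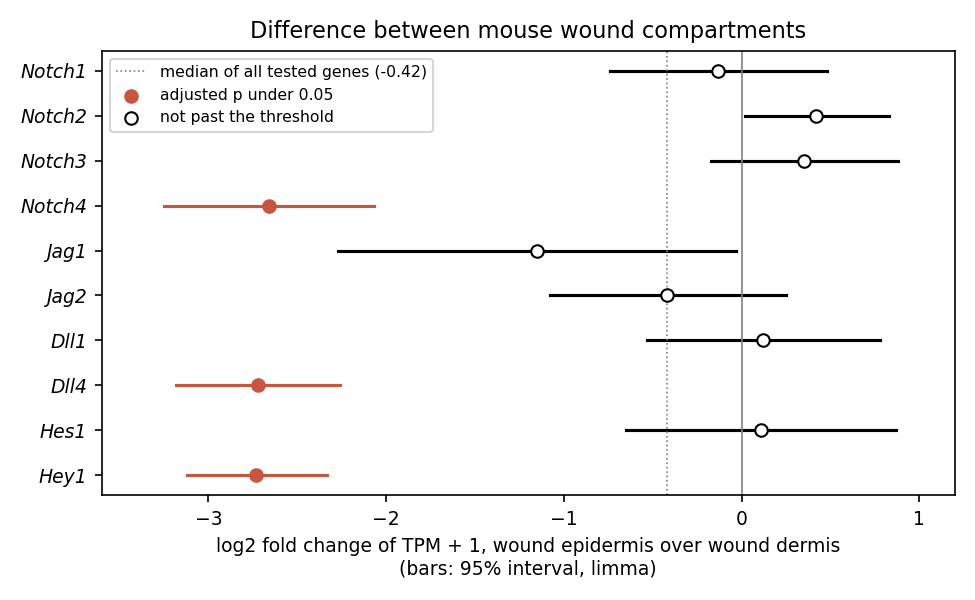
Log2 fold change of each gene on the log2(TPM + 1) scale, wound epidermis over wound dermis, with 95% intervals from limma (n = 3 libraries each). Filled red points passed an adjusted p of 0.05, and the dotted line is the median of all tested genes, at -0.42. Notch4, Dll4 and Hey1 lie between -2.73 and -2.66, apart from the other 7 genes.

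The order of levels differed between the tissues. In epidermis, by mean TPM, it ran Notch2 (155), Hes1 (101), Jag1 (71.5), Notch3 (8.16), Dll1 (4.44), Jag2 (3.37) and Notch1 (3.20), with Notch4, Dll4 and Hey1 under 1 TPM. The ranges of Hes1 and Jag1 overlapped, as did those of Dll1, Jag2 and Notch1, so the ranges across libraries do not order those neighbours. Within each of the 3 epidermis libraries, however, Hes1 was above Jag1, and Dll1 was above both Jag2 and Notch1, while Jag2 and Notch1 changed places. In dermis it ran Jag1 (140), Notch2 (115), Hes1 (93.0), Notch4 (6.60), Dll4 (6.33), Notch3 (6.18), Hey1 (5.76), Jag2 (4.73), Dll1 (3.85) and Notch1 (3.51). There the ranges of the first 3 overlapped, and so did those of each neighbouring pair of the last 7. Jag1 was above Notch2, Hey1 above Jag2 and Jag2 above Dll1 within each of the 3 dermis libraries, and the other overlapping neighbours changed places between libraries.

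The spread between epidermis libraries was shared by many of the members. Epidermis replicate 2 was the lowest of its group for 9 of the 10 genes and the highest for Notch3. The same library had the highest sum of differentiated keratinocyte markers and the lowest sum of basal keratinocyte markers, at 6765 TPM against 9831 and 17745 TPM in replicates 1 and 3. In wound dermis, replicate 3 was the lowest for 7 of the 10. The part of these library differences in the results was not tested.

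Notch4, Dll4 and Hey1 moved with the markers of several cell types of the dermis, and not with those of vessels alone. The 11 endothelial markers summed to 7.64, 11.6 and 12.1 TPM in wound epidermis, against 699, 554 and 522 TPM in wound dermis, and none of them was at 0 throughout a group. Cldn5, a tight junction protein of endothelium, fell by 6.21 on the log2 scale and Pecam1, an endothelial adhesion molecule, fell by 4.28. The 9 mural cell markers summed to 20.5, 4.54 and 28.6 TPM in epidermis, against 7415, 5637 and 3687 TPM in dermis. The 9 fibroblast markers summed to 47.0, 20.3 and 117 TPM in epidermis, against 68708, 44197 and 68409 TPM in dermis. The 8 macrophage markers, all called lower too, summed to 57, 76 and 67.9 TPM in epidermis, against 803, 685 and 1191 TPM in dermis. The median log2 fold change was -9.74 for fibroblast markers, -4.96 for macrophage markers, -4.48 for endothelial markers and -3.52 for mural cell markers. In whole tissue, fewer cells of a type and less RNA per cell cannot be told apart, and the part of these cell types in the results for Notch4, Dll4 and Hey1 was not tested.

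The genes whose pattern was most like that of each member were taken by Pearson correlation of log2(TPM + 1) over the 6 libraries, among genes with a mean of at least 5 TPM. The 6 points fall into 2 tissues and the genes were picked from many, so high values are a description and no more. For Hey1 the closest were Tek, Heg1 and Sox17 (r = 0.9998, 0.9996 and 0.9995). Tek, a receptor of endothelial cells, averaged 0.0367 TPM in epidermis and 10.3 TPM in dermis, and Sox17, an arterial transcription factor, 0.0833 and 18.5 TPM in epidermis and dermis. For Dll4 they were Kalrn, Adgrl4 and Igsf10 (r = 0.9997, 0.9996 and 0.9994), and for Notch4 Phykpl, Efnb2 and Parp12 (r = 0.9984, 0.9981 and 0.9976). Efnb2, a guidance ligand found on arteries, averaged 12.6 TPM in epidermis and 19.3 TPM in dermis, so that it resembled Notch4 in the shape of its pattern and not in its size. The same held for Phykpl, the closest to Notch4, with 9.78 TPM in epidermis and 12.6 TPM in dermis. Roles are given for some of these genes only, and no cell type is read from them.

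Jag1 ran closest to Snai2, a transcriptional repressor (r = 0.9990), with 11.6 TPM in epidermis and 22.2 TPM in dermis. Notch2 was closest to Slc38a9 (r = 0.9954) and Notch3 to Rpl39 (r = 0.9953). Notch1 was closest to Lrig2 and Pithd1 (both r = 0.9836), Jag2 to Timmdc1 (r = 0.9891), Hes1 to Cul2 (r = 0.9813) and Dll1 to Ang (r = 0.9547).

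Beyond the 10 members, 71 other genes of the pathway were listed by role, and 59 of them were tested. Of these 15 were higher and 24 lower in epidermis, with a median log2 fold change of -0.31. Over all tested genes 17.0% were higher and 39.3% lower, with a median of -0.42. The share of lower pathway genes was near that of genes in general, while the share of higher ones stood above it. These lists have no test. Without dermis replicate 2 the pathway counts were 14 higher and 25 lower, beside 2791 and 5803 of all 15982 tested genes. Under median-of-ratios scaling the pathway counts were 23 and 20, beside 4342 and 4850 of all tested genes.

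Of 4 atypical ligands and ligand-like matrix proteins tested, 1 was higher and 3 were lower in epidermis, too few to set against the 39.3% of all tested genes that were lower. Mfap2 and Mfap5, microfibril proteins that can bind Notch1, were both lower: Mfap2 fell by 8.02 and Mfap5 fell by 7.09 on the log2 scale. Mfap2 averaged 0.313 ± 0.148 TPM in epidermis, against 351 ± 120 TPM in dermis (SD, n = 3 each). Ccn3, a matricellular protein, was listed at 0 in all 3 epidermis libraries, against 0.84, 0.50 and 54.66 TPM in dermis replicates 1, 2 and 3, and was not tested. Dner, an atypical ligand, was near 0 in both tissues, at 0 in every epidermis library and at 0, 0.07 and 0.06 TPM in dermis replicates 1, 2 and 3.

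Enzymes that add sugars to Notch receptors were lower in epidermis in 5 of 7 cases, and 0 were higher, also at an unadjusted limma p. Over all tested genes 39.3% were lower and 17.0% higher, and 7 genes are too few to set against these shares. Mfng, the Manic fringe glycosyltransferase, measured 0.24, 0.08 and 0.61 TPM in epidermis, against 31.01, 28.13 and 20.38 TPM in dermis. Its log2 fold change was -4.39 ± 0.25 (SE, limma adjusted p = 2.1e-05). Gxylt2, a xylosyltransferase, fell by 4.20. The difference of Poglut1, which adds O-glucose, was small, at -0.62 (limma adjusted p = 0.034). Poglut1 stood at -0.17 under median-of-ratios scaling and -0.19 with quantile normalization (limma adjusted p = 0.46 and 0.44), at limma adjusted p = 0.063 with the replicate block, and at 0.055 to 0.11 with each library but dermis replicate 2 left out. Scaling moved the counts of this list, with 2 higher under median-of-ratios scaling, and 2 higher and 2 lower after quantile normalization. Of all 15982 tested genes 4342 were higher under median-of-ratios scaling, and 4694 were higher and 4191 lower after quantile normalization.

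Genes of receptor cleavage were split. Of 9 tested, 2 were higher and 2 lower in epidermis, where 17.0% of all tested genes were higher and 39.3% lower. Psen2, a catalytic subunit of gamma-secretase, stood at 2.71, 0.96 and 4.13 TPM in epidermis, against 54.70, 42.99 and 56.90 TPM in dermis (log2 fold change -3.96 ± 0.36 SE, limma adjusted p = 0.00014). The tissues did not overlap. Adam10, the protease of the first ligand-dependent cut, fell by 1.06, and averaged 93.6 ± 24.6 TPM in epidermis, against 192 ± 11.8 TPM in dermis (SD, n = 3 each). Furin, which cuts the receptor during its maturation, rose by 0.59 (limma adjusted p = 0.042) and missed the threshold with any 1 library left out, at limma adjusted p from 0.051 to 0.12, without the filter (0.053) and with the replicate block (0.085). Ncstn, Psenen, Aph1a, Aph1b and Adam17 did not pass. Under median-of-ratios scaling 5 cleavage genes were higher, and with quantile normalization 4. Of all 15982 tested genes 4342 and 4694 were higher in these fits, and 9 genes are too few to set against them.

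In the nuclear complex 2 of 13 genes were higher and 4 lower, or 2 lower under either other scaling. Of all tested genes 17.0% were higher and 39.3% lower in the fit as reported. Under median-of-ratios scaling 4850 of the 15982 tested genes were lower, and after quantile normalization 4191. Rbpj stood at 3.35, 3.50 and 3.76 TPM in epidermis, against 10.58, 10.16 and 10.10 TPM in dermis. Libraries of 1 tissue were within 1 TPM of each other, and the log2 fold change was -1.31 ± 0.18 (SE, limma adjusted p = 0.00092). Of the 3 Mastermind coactivators Maml2 fell by 3.25, Maml1 fell by 0.67 (limma adjusted p = 0.018) and Maml3 rose by 1.29. Maml1, named after its values were seen, was -0.30 under median-of-ratios scaling (limma adjusted p = 0.23) and turned to 0.08 after quantile normalization (limma adjusted p = 0.77), and missed the threshold without epidermis replicate 1 or dermis replicate 1 (limma adjusted p = 0.050 and 0.051). Kdm5a, a histone demethylase that can join the repressor form of the complex, rose by 0.99. Kat2b, an acetyltransferase, fell by 0.83, but was -0.40 under median-of-ratios scaling (limma adjusted p = 0.14) and -0.26 after quantile normalization (limma adjusted p = 0.34).

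Of 12 tested genes of endocytosis and turnover 4 were higher and 4 lower, beside 17.0% higher and 39.3% lower over all tested genes. Numb, an inhibitor of the receptor, stood at 31.11, 25.27 and 24.47 TPM in epidermis, against 10.13, 16.10 and 12.53 TPM in dermis, and rose by 1.02 (limma adjusted p = 0.0077). Members of the Deltex family, E3 ligases that act on Notch, differed in direction: Dtx2 rose by 1.45, while Dtx3 fell by 2.95 and Dtx4 fell by 4.20. Nedd4, another E3 ligase, fell by 2.86. Mib1, the ligase that internalises ligands, fell by 0.93 and stood at -0.48 under median-of-ratios scaling (limma adjusted p = 0.073). Bmp2k, an endocytic kinase, rose by 0.71 and missed the threshold without epidermis replicate 1 or dermis replicate 3 (limma adjusted p = 0.095 and 0.083).

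Most other Hes and Hey genes were near 0 in both tissues, and 2 of 8 could be tested. Both were lower in epidermis, too few to set against the 39.3% of all tested genes that were lower. Hes6 averaged 3.59 ± 1.81 TPM in epidermis, against 23.7 ± 7.93 TPM in dermis (SD, n = 3 each), and fell by 2.46. Heyl was listed at 0, 0 and 0.10 TPM in epidermis, against 1.72, 3.64 and 3.47 TPM in dermis, and fell by 1.89. Heyl falls outside the naming rule and was chosen after its values were seen. Hes5 and Hey2 were listed at 0 in every epidermis library, Helt in every dermis library and Hes3 in all 6.

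Among 13 other genes known to respond to Notch in some tissue, 7 were higher and 4 lower in epidermis, with a median of 0.92. Over all tested genes 17.0% were higher and 39.3% lower, with a median of -0.42. The list was chosen with earlier results of these data known and has no test. Quantile normalization left 2 lower, where 4191 of all 15982 tested genes were lower, against 6275 as reported. Those higher included Cdkn1a, the cell cycle inhibitor p21, at 2325.17, 2080.76 and 1360.43 TPM in epidermis, against 251.83, 468.69 and 150.07 TPM in dermis. The Cdkn1a log2 fold change was 2.84 ± 0.44 (SE, limma adjusted p = 0.0016). Gata3, a transcription factor of skin and T cells, rose by 3.40. Gata3 was at 576.52 TPM in dermis replicate 2, against 68.79 and 49.57 TPM in dermis replicates 1 and 3. It missed the threshold without epidermis replicate 1 or dermis replicate 1 or 3 (limma adjusted p = 0.050, 0.060 and 0.051). Myc, a growth-promoting transcription factor, rose by 1.15 and missed it without epidermis replicate 1 or 3 or dermis replicate 1 or 3 (limma adjusted p from 0.079 to 0.12), without the filter (0.071) and with the replicate block (0.069). Tgm2, a transglutaminase, fell by 3.38 and Id3, an inhibitor of helix-loop-helix factors, fell by 2.73. Without epidermis replicate 1, or dermis replicate 1 or 3, the number of higher genes in this list was 4. Over all 15982 tested genes the higher ones numbered 2124, 2161 and 2191 in these fits, against 2721.

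**Figure D4:**
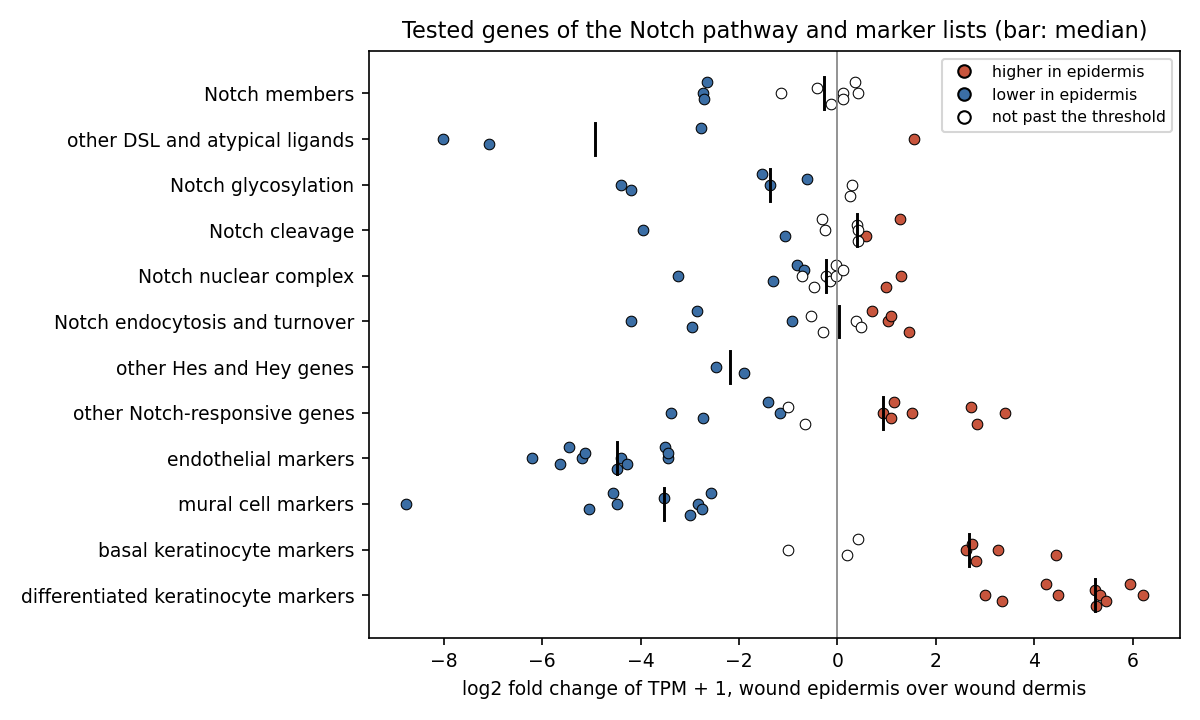
Log2 fold change of each tested gene, wound epidermis over wound dermis on the log2(TPM + 1) scale, for the 10 members, 7 other lists of pathway genes and 4 lists of cell markers. Each point is a gene, coloured by its call, and each vertical bar is the list's median. Endothelial and mural cell markers lie left of 0 throughout, and the pathway lists spread to both sides.

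The members lie on 5 mouse chromosomes (mm10, all protein-coding, GENCODE M21). Notch4 is on chromosome 17 from 34564268 to 34588503, Dll4 on chromosome 2 from 119325784 to 119335962 and Hey1 on chromosome 3 from 8663359 to 8667256. Notch2 is on chromosome 3 from 98013527 to 98150361, Jag1 on chromosome 2 from 137081456 to 137116644 and Hes1 on chromosome 16 from 30064384 to 30067796. Opposite-strand genes that share exon bases with Notch3, Dll1 and Dll4 averaged at most 1 TPM in either tissue. Across the alternatives Notch4, Dll4 and Hey1 stayed lower in epidermis and past the threshold in every fit that held them. They met the filter through the dermis libraries alone, so this is a description and no further support for the difference. Fits with the filter applied anew and a dermis library left out did not hold them. Median-of-ratios scaling and quantile normalization each raised the log2 fold change of all 10 members.

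**Figure D5:**
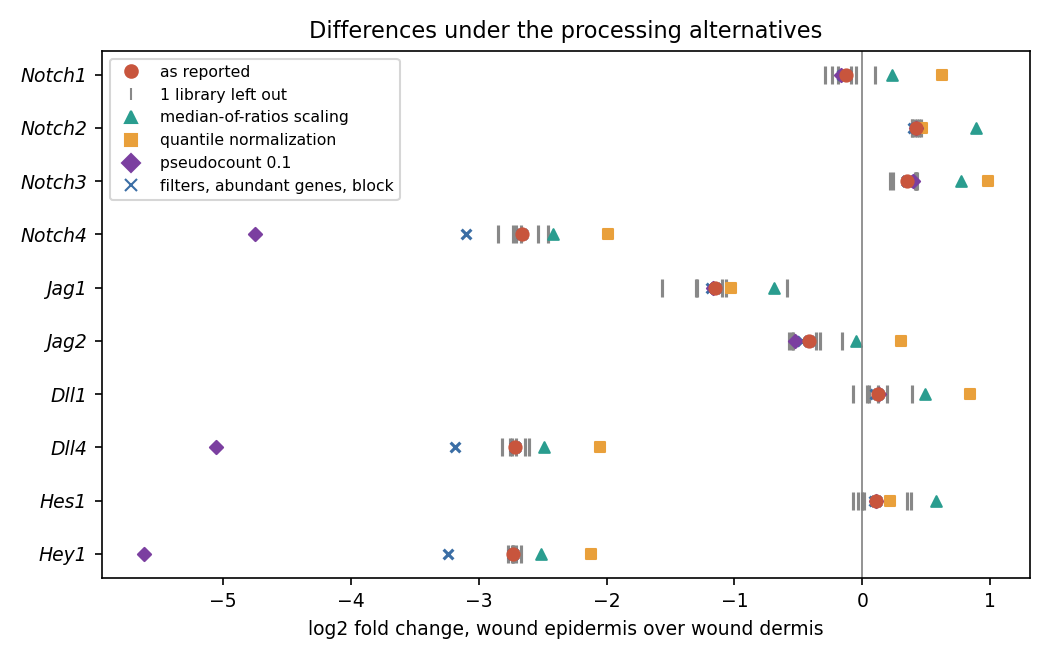
Log2 fold change of each gene, wound epidermis over wound dermis, as reported (red circles) and under the processing alternatives, with grey ticks for fits that leave out 1 library. Notch4, Dll4 and Hey1, which met the filter through dermis alone, lie left of 0 under each alternative shown that held them. Notch1 and Jag2 change sign with the scaling.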

How the data were processed

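RNA from wound epidermis and wound dermis of mice was copied and amplified by SMART-seq2, per the labels' protocols, with 2 input amounts and 2 read lengths that are not tied to libraries. The deposited values are TPM, which the authors computed library by library. Per the submitters' processing notes the tools were Bowtie 1.0.0 and RSEM 1.2.31 and the mouse build was mm10. The sources used here give no annotation, settings or use of strand. TPM keeps no depth, so no counting interval is given, and abundant genes of 1 tissue lower the values of its other genes. Symbols were found for 49289 of 49548 genes.

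In R 4.3.3, limma 3.58.1 was run on log2(TPM + 1) with a mean-variance trend, on 15982 genes with at least 1 TPM in 3 or more of the 6 libraries. Benjamini-Hochberg adjustment covered all of them, with a threshold of 0.05. The script was tested on simulated data. Alternatives were a pseudocount of 0.1, no filter, a filter of 5 TPM, median-of-ratios scaling, quantile normalization, leaving out the 50 most abundant genes, the replicate number as a block, and each library left out. Leaving out a library kept the 15982 genes; fits with the filter applied anew were added after seeing the data. The members and lists were chosen with earlier results of these data known, so lists have no test. From each pathway list the text names up to 4 called genes per direction with the smallest adjusted p and a mean of at least 10 TPM in either tissue, and genes at 0 in a tissue. Exceptions are marked or did not pass, and some genes the rule would name are not reported here.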

Additional observations from a re-analysis of the deposited data

How the results depend on the processing

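With a pseudocount of 0.1 the log2 fold changes of Notch4, Dll4 and Hey1 were -4.75, -5.06 and -5.62. Scaling moved the split of calls by direction: the median of all tested genes was -0.42 as reported, -0.03 under median-of-ratios scaling and 0.08 with quantile normalization. Of the called genes 30.2%, 47.2% and 52.8% were higher in epidermis in these fits, and the higher genes numbered 2721, 4342 and 4694. Under median-of-ratios scaling Notch2 (0.89) and Notch3 (0.77) passed as higher and Notch1 turned to 0.23. After quantile normalization Notch1 (0.62), Notch2 (0.47), Notch3 (0.98) and Dll1 (0.84) passed as higher and Jag2 turned to 0.30 and Maml1 to 0.08.

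With 1 library left out in turn the called genes numbered 5288 to 8714, against 8996, of which 3256 to 6406 were lower, against 6275 (with the filter applied anew 3416, 3751 and 3256 without dermis replicates 1, 2 and 3), and 1943 to 2791 higher. The lowest counts came without dermis replicates 1 and 3 (5427 and 5288) and the filter applied anew, which left fewer genes to test and left out Notch4, Dll4 and Hey1. The log2 fold changes ranged from -0.29 to 0.10 for Notch1, -1.57 to -0.59 for Jag1, -0.07 to 0.39 for Dll1 and -0.07 to 0.38 for Hes1. Jag1 passed without epidermis replicate 3, and Notch2, Notch3 and Jag2 stayed on their side of the threshold. The filter of 5 TPM left out Notch1, Notch4, Jag2 and Dll1.

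The labels do not say that replicate numbers pair libraries, so the numbers were not taken as pairs. Deviations of same-numbered libraries correlated at -0.135, 0.0859 and 0.189, and epidermis replicates 1 and 2 did not correlate best with their own number. With 3 libraries per tissue these correlations cannot settle whether libraries were paired. With the replicate block 8404 genes were called, 2464 higher and 5940 lower, and the call of no member changed. Depth is unknown, so values near 0 cannot be given a counting limit.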

Other observations

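Ptcra, the pre-T-cell receptor alpha chain and a Notch target of the thymus, was chosen after its values were seen. It stood at 8.64, 7.15 and 7.84 TPM in wound epidermis, against 2.47, 2.79 and 1.25 TPM in wound dermis, and rose by 1.52 ± 0.25 on the log2 scale (SE, limma adjusted p = 0.0022). Trac, the constant region of the mature T-cell receptor alpha chain, stood at 4.23, 3.61 and 8.19 TPM in epidermis, against 33.66, 26.10 and 33.78 TPM in dermis. Trac was not typical of the T cell markers, of which 3 of 7 tested were lower and 4 were not called. Of all tested genes 39.3% were lower. Cd3e, Cd3d, Cd3g and Trdc had log2 fold changes of -0.10, -0.39, -0.11 and -0.35 (limma adjusted p from 0.30 to 0.84). Nrarp, a feedback inhibitor of Notch that is known to be induced by it, was also named after its values were seen. It measured 31.63, 25.33 and 34.57 TPM in epidermis, against 16.79, 22.10 and 10.04 TPM in dermis, and rose by 0.92 ± 0.30 on the log2 scale (SE, limma adjusted p = 0.036). Nrarp missed the threshold without epidermis replicate 1 or 3 or dermis replicate 1 or 3 (limma adjusted p = 0.098, 0.092, 0.074 and 0.089), without the filter (0.064) and with the replicate block (0.067).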
